A study of Mus musculus with 6 samples.

Results

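The 44 mitosis genes described here encode proteins that build, move and divide chromosomes in a dividing cell. They are the rows of the deposited mouse count table whose Ensembl gene identifiers map to a list of 44 symbols. All 44 had a row among the 26519 genes of the table, and all 44 passed the filter on low counts that left 12580 genes for testing. The list leaves out Bub1, Bub1b and Nusap1, which lie near Mavs on chromosome 2. Of the 44 genes, 4 are on chromosome 2 (Spc25, Tpx2, Ube2c and Aurka), and the nearest of these to Mavs lies 21.6 Mb away.

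The RNA came from cells labelled as dendritic cells that had infiltrated tumours. The tumours were grown from MC38, an established mouse colon carcinoma line, and the cells were taken on day 10 after the tumour cells were given. The 3 WT libraries came from wild-type host mice and the 3 MAVS KO libraries from hosts with a knockout of Mavs, which encodes a mitochondrial adaptor of RNA sensing. The groups are written WT and KO below and share the tumour line, the day and the labelled cell type. The comparison asks what host MAVS signalling does to these cells. The labels give no mouse strain, sex or age, no description of the knockout allele and no method of isolation. They do not say whether the 3 samples of a group came from separate mice, so a p-value here covers the spread among the samples alone, and that spread may be technical. The knockout is named for the host only, so an effect within the isolated cells cannot be told apart from one of the host cells around them.

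A dividing cell makes the transcripts of mitosis genes mainly in the G2 and M phases of the cell cycle. Cyclin B with CDK1 starts mitosis, kinesins and kinetochores attach and move the chromosomes, the spindle checkpoint holds back the anaphase-promoting complex until all are attached, and the cell then divides by cytokinesis. Many of these genes share a promoter layout in which a cell cycle homology region (CHR), bound by the MuvB complex, lies near the transcript start and downstream of CCAAT boxes, bound by NF-Y. Conventional dendritic cells arise from dividing precursors, and some go on dividing in tissue, so such a population can hold both cycling and resting cells.

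The promoters of the members are shown because these short letters are what the genes share in sequence and the count data did not choose them. The windows are RefSeq's on GRCm38.p6, each 300 bases long, with 250 bases before and 50 after a transcript start. A window was found for 36 of the 44 genes, including 6 of the 8 genes that fell in the knockout, and gave 38 windows. Capitals mark the CHR letters (TTTGAA or TTCGAA) and the letters CCAAT, each searched on both strands, so TTCAAA and ATTGG are the same motifs read on the other strand. The motif sets do not overlap in their letters. Position -1 is the base before the transcript start and +1 is the first transcribed base. The first 4 genes have the smallest p-values among members with both motifs, and Anln is a member whose level did not pass the test.
Kif11, chr19:37376252-37376381, plus strand, -130 to -1: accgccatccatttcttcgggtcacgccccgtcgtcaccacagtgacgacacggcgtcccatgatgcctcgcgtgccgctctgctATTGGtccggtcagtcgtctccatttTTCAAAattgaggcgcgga
Top2a, chr11:99024190-99024319, minus strand, -130 to -1: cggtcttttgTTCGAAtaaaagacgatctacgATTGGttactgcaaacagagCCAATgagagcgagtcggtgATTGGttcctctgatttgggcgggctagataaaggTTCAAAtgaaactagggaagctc
Kif4, chrX:100626065-100626094, plus strand, +1 to +30: ctggcgcctctgggatcaaTTTGAAacttg
Kif22, chr7:127042421-127042450, minus strand, -30 to -1: ggggccccggtaaTTCAAAagagagaagcg
Anln, chr9:22389207-22389336, minus strand, -130 to -1: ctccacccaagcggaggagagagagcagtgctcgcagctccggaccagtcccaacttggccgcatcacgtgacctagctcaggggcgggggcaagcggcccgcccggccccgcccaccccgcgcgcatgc
Anln, chr9:22389173-22389202, minus strand, +5 to +34: cgtccggggcgctgaaaTTCAAAtTTTGAA

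In Kif11 the CHR letters start at -19 and the CCAAT letters at -45. Top2a holds 4 CHR matches in its window, the nearest at -23, and 6 CCAAT matches, of which those at -98, -78 and -58 lie in the printed stretch. The CHR match of Kif4 starts at +20, and its nearest CCAAT match starts at -5, just before the printed site. Kif22 has a CHR match at -17 and a CCAAT match at -54. Only 30 bases are shown for Kif4 and Kif22 because GENCODE places 130 and 51 of the 130 bases before their RefSeq starts inside annotated exons. Anln has CHR matches at +22 and +29 and no CCAAT letters in its window. The window of Pttg1, the other gene chosen for its large p-value, holds neither motif. It starts 1482 bases inside the outermost RefSeq start of Pttg1 and all 130 bases before its start are exonic in GENCODE, so it is not printed.

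The CHR letters occurred in 32 of the 38 windows of mitosis genes, which is 84.2%, against 19.2% of all 32851 RefSeq windows of the same length. The CCAAT letters occurred in 30 windows, or 78.9%, against 37.4% of all windows. Both occurred in 28 windows, or 73.7%, against 7.52%. A CHR match lay within 50 bases of the transcript start in 29 windows (76.3% against 5.31%), and one starting 20 to 40 bases after a CCAAT match was found in 18 (47.4% against 0.968%). E2F letters (TTTCCCGC, TTTCGCGC, TTTGCCGC or TTTGGCGC, both strands), which are typical of genes of DNA replication, occurred in 4 windows (10.5% against 2.26%). A match is a description of the sequence and not a measured binding site. Birc5, Mad2l1, Pttg1 and Nuf2 had neither CHR nor CCAAT letters in their windows, which says nothing about the factors that act on them. For 6 of the 36 genes the window starts more than 100 bases inside the outermost RefSeq start of the gene. No window was at hand for Aurkb, Spc24, Ccna2, Incenp, Kif20a, Tpx2, Stmn1 and Smc4.

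**Figure D1:**
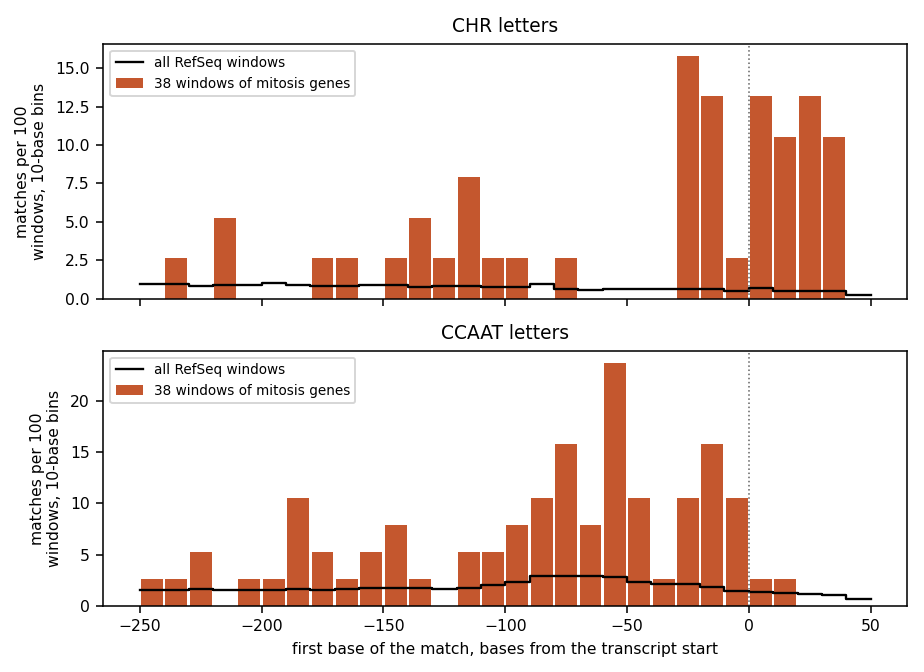
Matches to the CHR letters (upper panel) and the CCAAT letters (lower panel) per 100 promoter windows, in 10-base bins by distance of the first base of the match from the transcript start, with bars for the 38 windows of mitosis genes and a black line for all RefSeq windows. The CHR matches of mitosis genes gather around the start, where 76.3% of their windows hold one within 50 bases, and the CCAAT matches lie farther upstream.

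Library totals ranged from 14466640 to 20851733 counts, and between 15635 and 21432 genes had at least 1 count in a library. Mavs (ENSMUSG00000037523) averaged 37.7 ± 3.32 CPM (counts relative to library size, SD, n = 3) in WT and 10.4 ± 2.09 in KO. Its log2 fold change was -1.86 (SE 0.18, edgeR adjusted p = 0.0017), so the targeted transcript was low in the libraries labelled KO. Throughout, CPM are scaled by edgeR's TMM factors, log2 fold changes are KO over WT, and adjusted p-values come from the quasi-likelihood test of edgeR, adjusted by Benjamini-Hochberg over all 12580 tested genes, with 0.05 as the threshold. Gene positions are those of GENCODE M21 on GRCm38. The cell type labels were checked on marker sums. The 12 markers of type 1 conventional dendritic cells (cDC1) summed to 919 to 1541 CPM in WT and 950 to 1066 in KO, and the 9 of type 2 (cDC2) to 2438 to 2701 and 2732 to 4529. Naaa made 43.1% to 54.5% of the cDC1 sum and Mgl2 59.5% to 73.7% of the cDC2 sum. Xcr1 and Clec9a, which define cDC1, were detected in all 6 libraries at low levels. Xcr1 measured 21.9 to 47.7 CPM in WT and 6.37 to 9.74 in KO, and Clec9a 5.61 to 10.3 and 6.24 to 7.62. The 12 macrophage markers summed to 25721 to 30864 CPM in WT and 27197 to 34874 in KO, of which Lyz2, a lysozyme gene that other myeloid cells also express, made 70.7% to 78.2%. The other 11 summed to 6411 to 7281 CPM in WT and 7590 to 8195 in KO. Among them C1qb alone measured 1904 to 2416 CPM in WT and 2498 to 2890 in KO. The populations labelled as dendritic cells thus carried macrophage marker transcripts beside those of dendritic cells. Single markers of both kinds ran from low to high. Among the macrophage markers Mertk measured 25.2 to 33.6 CPM in WT and 29.3 to 44.9 in KO. Of the listed dendritic cell markers Naaa measured 428 to 664 CPM in WT and 437 to 501 in KO. Mgl2 measured 1460 to 1767 CPM in WT and 1626 to 3339 in KO. These CPM are not scaled by gene length, so they do not give shares of cell types.

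As a group the mitosis genes were expressed at a lower level in the MAVS KO libraries. 8 of the 44 fell at the threshold and none rose, while 36 did not pass. The 8 are Spc24, Kif11, Aurkb, Top2a, Birc5, Kif4, Kif22 and Ncapd2. That is 18.2% of the members, beside 1.05% of all tested genes that were called lower and 1.76% that were called higher. No member rose by DESeq2 or limma-voom either, and none had a positive fold change with an unadjusted p under 0.05. Of the 44 fitted log2 fold changes 43 were below 0, and the 44 ranged from -1.41 to 0.09 with a median of -0.67, beside a median of -0.0022 over all tested genes. An unadjusted p under 0.05 with a lower level in KO was found for 32 members, against 7.51% of all tested genes. For 27 members every KO library lay below every WT library, which was so for 10.6% of all tested genes. These 27 include the 8 called genes and 19 that did not pass. DESeq2 called 21 members lower, among them all 8, against 2.8% of the 12092 genes to which it gave an adjusted p. In bulk RNA, fewer dividing cells and less of these transcripts per dividing cell cannot be told apart.

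The count of 8 changed with the library that was left out. Without WT 1, WT 2 or WT 3 the test called 2, 1 and 15 members lower, and without KO 1, KO 2 or KO 3 it called 0, 2 and 0. The members' median log2 fold change over these 6 fits stayed between -0.49, without WT 2, and -0.83, without WT 3. Spc24 was called in 4 of the 6 fits, Kif11 in 3, Aurkb, Top2a, Birc5 and Kif4 in 1 each, and Kif22 and Ncapd2 in 0.

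The libraries of a group differed among themselves. Summed over the 44 genes, WT 1, 2 and 3 held 1704, 1874 and 1302 CPM, and KO 1, 2 and 3 held 1049, 1143 and 1079. All 3 WT sums lay above all 3 KO sums, with WT 3 the lowest of its group. The means were 1627 ± 294 CPM in WT and 1090 ± 48.0 in KO (SD, n = 3), so the KO sum was 33.0% lower. WT 2 was the highest of the 6 libraries for 33 members, WT 1 for 10 and KO 2 for 1. WT 3 was the lowest WT library for 39 members. In KO the lowest place was shared, with KO 1 the lowest of all 6 libraries for 17 members, KO 2 for 12 and KO 3 for 14. The ratio of the highest to the lowest library had a median over members of 1.57 within WT and 1.30 within KO, and it was wider in WT for 31 of the 44.

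**Figure D2:**
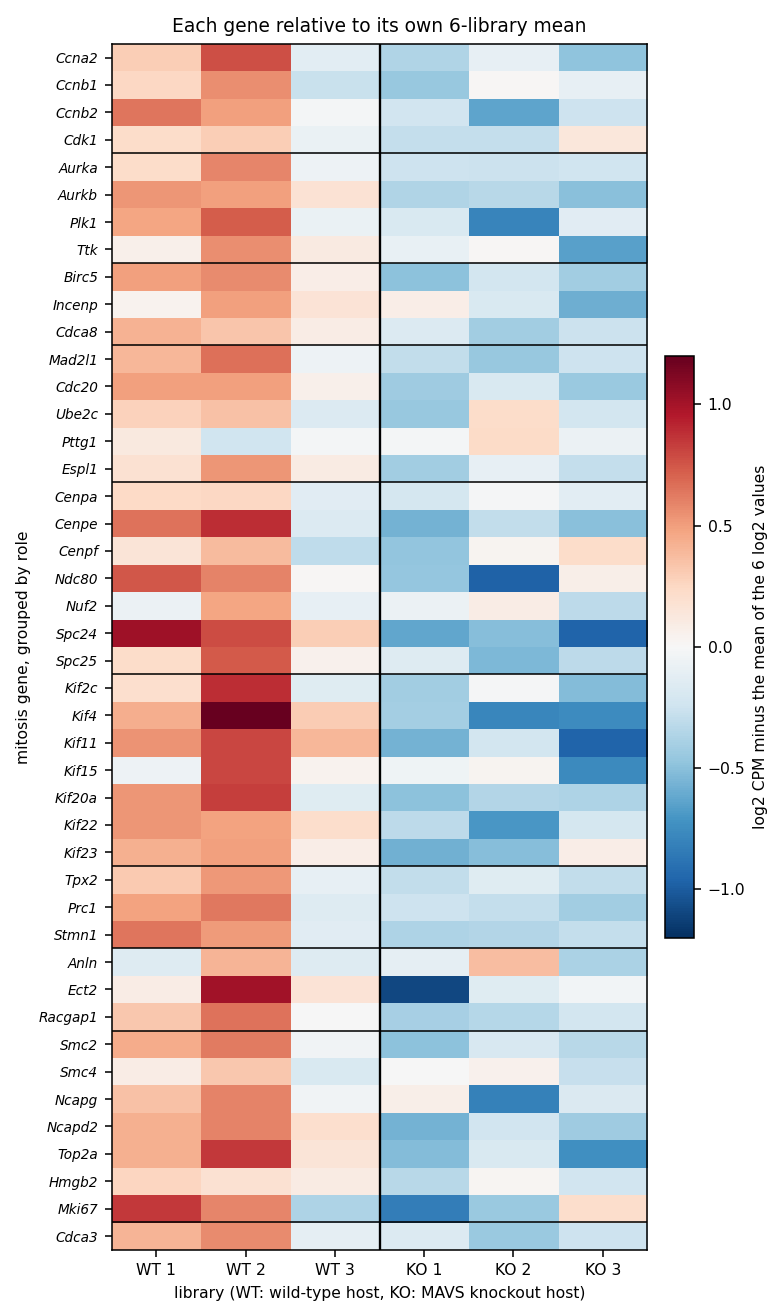
Log2 CPM of each of the 44 mitosis genes (rows, grouped by role, black lines between roles) in each library (columns), minus the gene's mean over the 6 libraries. WT 1 and WT 2 are high for most genes, WT 3 sits near the mean of the 6 libraries (median deviation -0.03), and the KO libraries have median deviations between -0.36 and -0.23.

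Markers of other cells differed between the same libraries. Genes of monocytes, which can give rise to dendritic cells, summed to 1850 to 3185 CPM in WT and 4441 to 13696 in KO over 7 genes. That difference was carried by Chil3, which rose, from 515 to 1850 CPM in WT to 3237 to 12484 in KO, while the other 6 summed to 1325 to 1515 in WT and 1204 to 1332 in KO. The 10 genes of mature migratory dendritic cells summed to 1032 to 1060 CPM in WT and 1189 to 1464 in KO, and Cd200, Ccl22 and Ccr7 rose. Of the 12 cDC1 markers 6 fell (Itgae, Gcsam, Snx22, Flt3, Wdfy4 and Xcr1). Xcr1 ranged from 21.9 to 47.7 CPM in WT and from 6.37 to 9.74 in KO, whereas the cDC1 sum overlapped between the groups. Naaa made 43.1% to 54.5% of that sum and overlapped, at 428 to 664 CPM in WT and 437 to 501 in KO. Irf8 overlapped as well, at 296 to 537 and 428 to 450 CPM, so the sum says little about the lower markers. Of the 9 cDC2 markers Cd209a fell and Sirpa rose. The 7 neutrophil genes summed to 55.5 to 57.2 CPM in WT and 93.0 to 98.7 in KO. Most of that difference was Mmp8, which rose (26.2 to 31.3 CPM in WT, 58.0 to 63.7 in KO). The sum of the other 6 was also higher in KO, at 25.6 to 31.0 CPM in WT and 35.01 to 35.05 in KO. Of these, Csf3r measured 16.6 to 24.9 CPM in WT and 22.3 to 25.9 in KO, and Ly6g, Retnlg and S100a9 did not exceed 0.148 CPM in any library. The 7 genes of plasmacytoid dendritic cells summed to 106 to 132 CPM in WT and 133 to 151 in KO, and the 6 without Bst2 overlapped at 53.7 to 65.5 and 46.0 to 66.9. The 5 B cell markers with counts went the other way, from 31.4 to 52.2 CPM in WT to 10.2 to 11.96 in KO, most of it Ighm, which fell. The 4 mast cell markers with counts summed to 21.6 to 31.5 CPM in WT and 9.83 to 14.2 in KO, nearly all of it Kit, which fell and which precursors of other blood cells also express. The part of these cells in the mitosis result was not tested.

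The 7 markers of epithelial tumour cells with counts summed to 13.3, 20.6 and 11.9 CPM in WT and 9.9, 11.2 and 9.8 in KO, with none called. WT 2 was the highest of the 6 for this sum as it was for the mitosis sum. Most of it was Epcam, at 6.03 to 16.2 CPM in WT and 5.17 to 7.91 in KO. The keratin Krt8 was at 0 in 5 libraries and at 0.0534 CPM in WT 2. The 10 T cell markers summed to 38.7 to 56.9 CPM in WT and 29.2 to 41.6 in KO and the 8 NK cell markers to 4.27 to 16.5 and 12.2 to 25.01, with none called in either list. The 7 fibroblast markers overlapped at 18.2 to 35.9 and 14.7 to 50.5 CPM, as did the 5 endothelial markers with counts at 32.6 to 54.4 and 50.8 to 85.7. The 2 hemoglobin genes Hba-a1 and Hbb-bs did not exceed 0.921 CPM in sum. Their part in the result was not tested.

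Levels can be compared between genes only per length, as CPM per kilobase of summed exons. On that scale the highest members in WT were Stmn1 at 65.4 ± 17.3, Hmgb2 at 51.6 ± 2.88 and Ccnb2 at 40.2 ± 9.13 (SD, n = 3). Stmn1 and Hmgb2 are also expressed in cells that do not divide, and without them the remaining 42 genes had the same median log2 fold change of -0.67. The lowest members were Kif15 at 0.591 ± 0.206, Cenpf at 0.832 ± 0.192 and Ttk at 0.840 ± 0.166 CPM per kilobase. The ranges of mean ± SD of neighbours in this order overlapped for Stmn1 and Hmgb2, for Hmgb2 and Ccnb2, and among the 3 lowest genes. Ttk had the fewest reads, with 389 counts over the 6 libraries, and 34 members reached 20 CPM in WT.

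**Figure D3:**
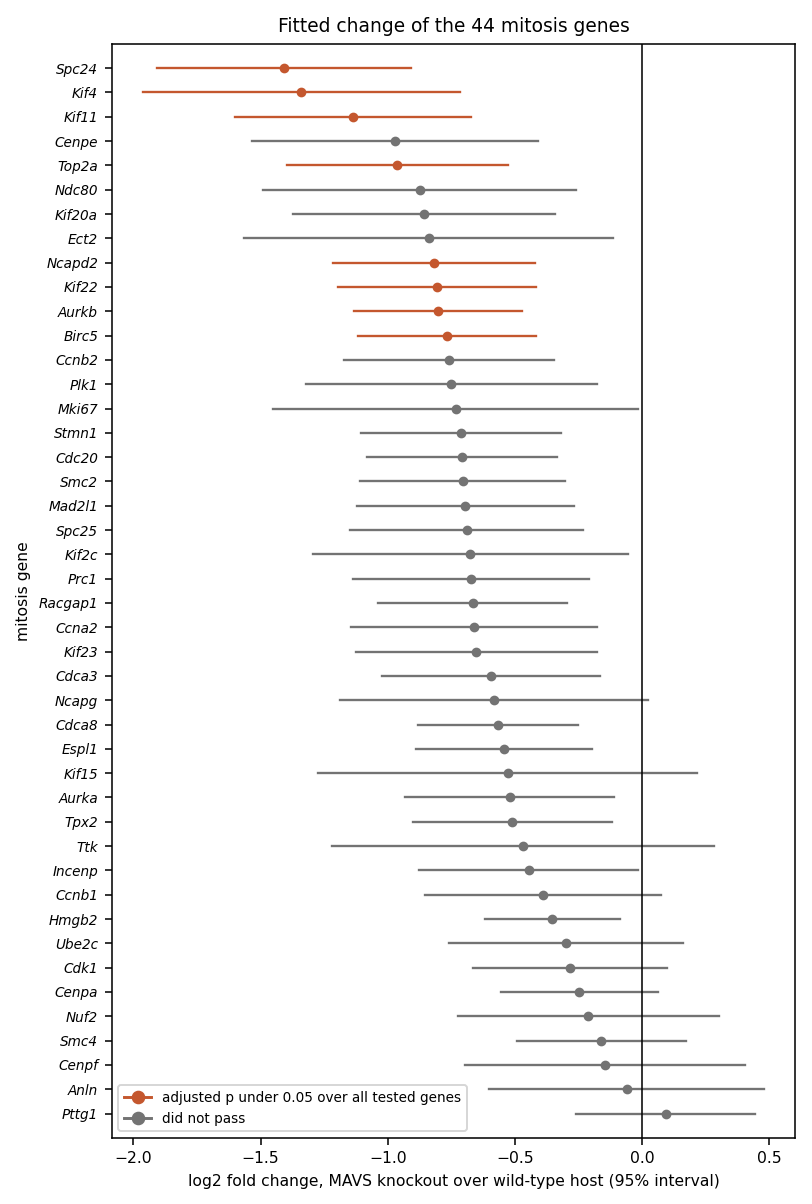
Fitted log2 fold change of each mitosis gene, KO over WT (points), with its 95% interval (lines), ordered by size and with the 8 genes that passed in orange. Of the 44 points 43 lie below 0, and 32 intervals lie wholly below 0.

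The cyclins and CDK1 start mitosis. None of the 4 passed, their median log2 fold change was -0.53, and 2 had an unadjusted p under 0.05. DESeq2 called Ccnb2 and limma-voom called none of them. Ccnb2 encodes cyclin B2 and had the smallest p and the highest CPM of the group. It measured 73.0, 65.7 and 46.0 CPM in WT and 39.8, 30.04 and 39.3 in KO. All KO libraries lay below all WT libraries, though WT 3 came close to them, and the log2 fold change was -0.76 (SE 0.19, edgeR adjusted p = 0.063). The other three overlapped between the groups. Ccna2, which encodes cyclin A2, had a log2 fold change of -0.66 (39.9 ± 12.4 CPM in WT, 25.3 ± 3.52 in KO). For Ccnb1, cyclin B1, it was -0.39 with a 95% interval from -0.85 to 0.07, and for Cdk1 itself -0.28 with an interval from -0.67 to 0.10, so both intervals hold no difference as well as a reduction.

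Of the 4 mitotic kinases 1 fell, and the KO libraries lay below the WT libraries for all 4. Aurkb (ENSMUSG00000020897, chr11:69045647-69051664) encodes Aurora B, the kinase of the chromosomal passenger complex, which corrects wrong attachments of chromosomes. It measured 44.2, 43.2 and 34.5 CPM in WT and 23.9, 24.3 and 21.6 in KO. The KO values lay close together and well below the lowest WT value, and the log2 fold change was -0.80 (SE 0.15, edgeR adjusted p = 0.0258). Aurka encodes Aurora A, the kinase of the spindle poles, and averaged 26.1 ± 5.93 CPM in WT and 18.2 ± 0.172 in KO (log2 fold change -0.52). Plk1, a kinase with roles from mitotic entry to cytokinesis, averaged 16.8 ± 4.52 and 9.98 ± 2.32 CPM (-0.75). Ttk, the checkpoint kinase MPS1, averaged 4.13 ± 0.815 and 2.98 ± 0.688 CPM (-0.47). Neither Aurka, Plk1 nor Ttk passed.

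The other subunits of the passenger complex place Aurora B on chromosomes. 1 of the 3 fell. Birc5 (ENSMUSG00000017716, chr11:117849251-117855743) encodes survivin, and it measured 60.2, 63.5 and 45.2 CPM in WT and 30.6, 36.7 and 32.0 in KO. The groups were separate, again with WT 3 the nearest to KO, and the log2 fold change was -0.77 (SE 0.16, edgeR adjusted p = 0.0329). Cdca8, which encodes borealin, measured -0.57 on the log2 scale with no overlap (45.9 ± 5.31 CPM in WT, 31.0 ± 2.72 in KO, edgeR adjusted p = 0.0673). Incenp, the scaffold of the complex, had -0.45 with overlapping groups (edgeR adjusted p = 0.299). All 4 subunits of the complex, Aurkb included, thus had fitted values below 0, and 2 of them passed.

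Among the 5 genes of the spindle checkpoint and of anaphase none passed, and the median log2 fold change was -0.54. An unadjusted p under 0.05 was found for 3 of them, DESeq2 called 3 and limma-voom 0. Cdc20 encodes the activator of the anaphase-promoting complex that the checkpoint holds back. It measured 36.7, 36.6 and 27.3 CPM in WT and 19.4, 22.9 and 19.2 in KO. The groups did not overlap, and the log2 fold change of -0.71 came close to the threshold (SE 0.17, edgeR adjusted p = 0.0548). Espl1, which encodes separase, the protease that cuts cohesin at anaphase, had the highest CPM of the group. It measured 45.2, 57.6 and 42.6 CPM in WT and 29.9, 37.2 and 32.7 in KO, with WT 3 the lowest WT library and no overlap (log2 fold change -0.54, SE 0.16, edgeR adjusted p = 0.106). Mad2l1, the checkpoint protein that binds CDC20, had -0.69 without overlap, and Ube2c, the ubiquitin-conjugating enzyme of the complex, had -0.30 with overlap and an interval from -0.76 to 0.16.

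Pttg1 encodes securin, the inhibitor of separase, and was the only member with a fitted value above 0. Its values per library are given although it was chosen after its values were seen. It measured 29.2, 22.7 and 26.4 CPM in WT and 26.4, 31.5 and 25.6 in KO. The groups overlapped throughout, and the log2 fold change was 0.09 with a 95% interval from -0.26 to 0.45 (edgeR adjusted p = 0.847). Its sign was below 0 with library size alone as the scale (-0.076) and without WT 2 or KO 2. Separase and securin were thus measured at -0.54 and 0.09, and the difference between them was not tested.

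Of the 7 genes of centromeres and kinetochores 1 fell, and it had the largest fitted fold change of all members. Spc24 (ENSMUSG00000074476, chr9:21755442-21760303) encodes the NDC80 complex subunit next to the chromosome side. It measured 30.2, 25.7 and 18.3 CPM in WT and 9.72, 10.5 and 7.69 in KO. The KO libraries lay close together, the highest of them well under the lowest WT library, and the log2 fold change was -1.41 (SE 0.22, 95% interval -1.91 to -0.91, edgeR adjusted p = 0.0164). Cenpa encodes the histone variant that marks centromeres and had the highest CPM of the group. It measured 62.6, 62.9 and 48.2 CPM in WT and 45.7, 52.2 and 48.4 in KO, so that WT 3 lay among the KO libraries (log2 fold change -0.25, SE 0.14, edgeR adjusted p = 0.442). Cenpe, a kinesin motor of the kinetochore, measured -0.97 on the same scale without overlap (24.1 ± 8.26 CPM in WT, 12.3 ± 1.23 in KO, edgeR adjusted p = 0.0762). Cenpf, a large kinetochore protein, had -0.15 with an interval from -0.70 to 0.40.

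The NDC80 complex joins microtubules to the kinetochore and has 4 subunits, all of them members. The comparison of its subunits was chosen after their values were seen. Spc24 fell by 1.41 on the log2 scale, and its partner Spc25 had -0.69 (SE 0.21, no overlap, edgeR adjusted p = 0.12). On the microtubule side Ndc80 had -0.87 (SE 0.28) and Nuf2 had -0.21 (SE 0.23), both with overlapping groups. The 95% intervals of Spc24 (-1.91 to -0.91) and Nuf2 (-0.72 to 0.30) did not overlap, but the difference between the genes was not tested. A pseudogene, 2700099C18Rik, matches Ndc80 at 95% over 303 bases and had 18.1% as many counts, so reads could be split between them.

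The 7 mitotic kinesins are motors of the spindle, and 3 of them fell, with a median log2 fold change of -0.81 for the group. Kif11 (ENSMUSG00000012443, chr19:37376403-37421859) encodes Eg5, which pushes the spindle poles apart, and its promoter stretch is printed above. It measured 28.7, 34.5 and 26.1 CPM in WT and 13.4, 17.0 and 10.2 in KO. The highest KO library lay well below the lowest WT library, and the log2 fold change was -1.14 (SE 0.21, edgeR adjusted p = 0.0252). Kif22 (ENSMUSG00000030677, chr7:127027729-127042471) encodes the chromosome-binding motor KID. It measured 34.5, 33.4 and 27.5 CPM in WT and 19.2, 14.8 and 20.7 in KO, with no overlap and a fitted change of -0.81 on the log2 scale (SE 0.18, edgeR adjusted p = 0.0395).

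Kif4 (ENSMUSG00000034311, chrX:100625737-100727214) encodes a motor of chromosome arms and of the central spindle. It measured 11.9, 20.3 and 10.8 CPM in WT and 6.63, 5.10 and 5.20 in KO. The WT group was spread, with WT 2 far above the others, but no library overlapped, and the log2 fold change was -1.34 (SE 0.28, edgeR adjusted p = 0.0364). Kif4 shares 832 of its 5514 exon bases with Pdzd11 on the opposite strand. The sources used here do not give the strand setting of the counting, and reads of the pair cannot be told apart there. Pdzd11 itself measured -0.17 on the log2 scale (SE 0.15, edgeR adjusted p = 0.653). Another 9 members share exon bases with an opposite-strand gene, namely Kif20a (1271 bases), Ncapg (944), Prc1 (911), Ube2c (592), Ccna2 (510), Cdca8 (232), Plk1 (156), Kif22 (96) and Cdc20 (53). Kif4 was not called by limma-voom, nor was Ncapd2.

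The 4 remaining kinesins did not pass. Kif20a, a motor of cytokinesis, had a log2 fold change of -0.86 without overlap (26.3 ± 8.39 CPM in WT, 14.5 ± 0.753 in KO, edgeR adjusted p = 0.0881), and shares 1271 of its 4338 exon bases with Cdc23 on the opposite strand. Kif23, which bundles the midzone with Racgap1, had -0.65 with overlap. Kif2c, which takes microtubules apart at centromeres, had -0.68, and Kif15, a motor that can assist Eg5, had -0.53 with an interval from -1.27 to 0.22. Both overlapped between the groups.

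**Figure D4:**
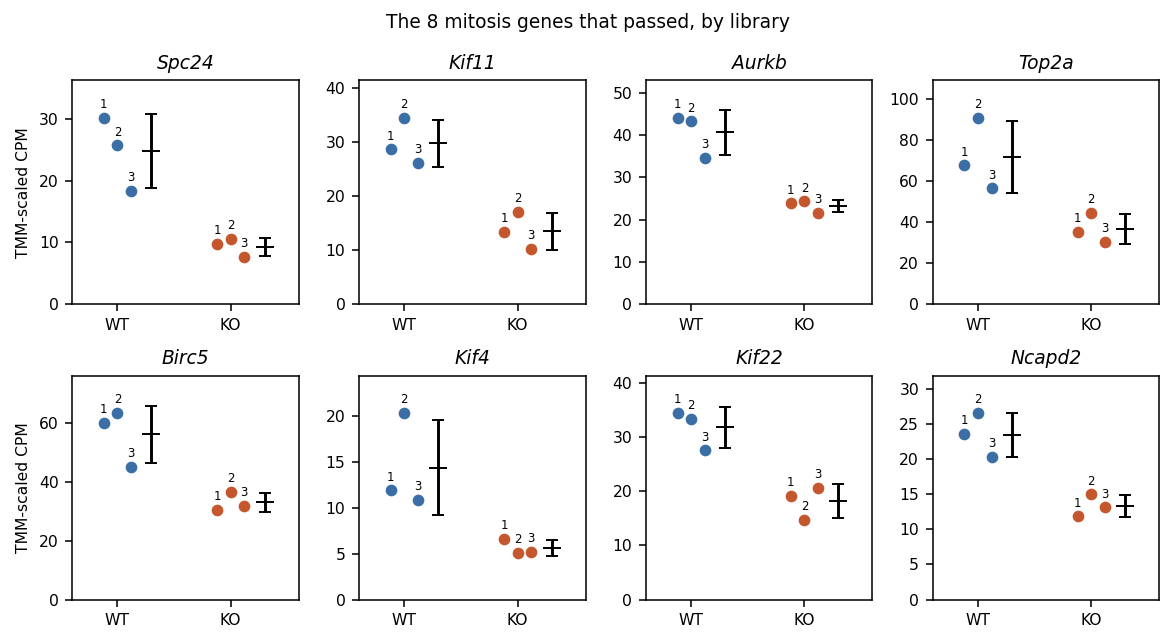
TMM-scaled CPM of the 8 mitosis genes that passed, one panel a gene, with a point for each library (numbered by replicate) and the group mean ± SD beside the points, on axes that start at 0. In every panel all 3 KO libraries lie below all 3 WT libraries, and WT 3 is the lowest WT library.

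None of the 3 genes for other spindle proteins passed, and all 3 had separate groups, with a median log2 fold change of -0.67. All 3 had an unadjusted p under 0.05, DESeq2 called 2 and limma-voom 0. Stmn1 encodes stathmin, which binds tubulin and takes microtubules apart, and had the smallest p and the highest CPM of the group. It measured 151, 138 and 88.0 CPM in WT and 75.04, 75.7 and 79.3 in KO. The KO libraries were almost equal, and WT 3 lay much nearer to them than to WT 1 and WT 2 (log2 fold change -0.71, SE 0.18, edgeR adjusted p = 0.0662). Tpx2, which activates Aurora A on the spindle, had -0.51 (33.1 ± 6.98 CPM in WT, 23.2 ± 1.39 in KO), and Prc1, which bundles the central spindle, had -0.67 (26.9 ± 7.17 and 16.8 ± 1.04).

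The 3 cytokinesis genes differed in their values, and none passed. DESeq2 called 1 and limma-voom 0, and 2 had an unadjusted p under 0.05. Racgap1 encodes a subunit of centralspindlin, which marks where the cell will divide. It measured 59.7, 74.9 and 47.4 CPM in WT and 36.2, 37.6 and 40.9 in KO, with separate groups and a fitted change of -0.67 on the log2 scale (SE 0.17, edgeR adjusted p = 0.0673). Ect2, the exchange factor that activates RhoA at that site, had -0.84 without overlap but with a wide standard error of 0.33 (15.4 ± 5.83 CPM in WT, 8.62 ± 3.02 in KO). Anln, which encodes anillin of the contractile ring, measured 13.01, 19.2 and 12.99 CPM in WT and 13.4, 18.7 and 11.1 in KO, values chosen for print after they were seen. The groups overlapped fully, and the log2 fold change was -0.06 with an interval from -0.60 to 0.48, which reaches from a reduction near the median of the members to a rise.

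Chromosome structure was represented by 7 genes, of which 2 fell, with a median log2 fold change of -0.71. Top2a (ENSMUSG00000020914, chr11:98992943-99024189) encodes topoisomerase II alpha, which untangles sister DNA. It measured 67.6, 90.8 and 56.3 CPM in WT and 35.3, 44.5 and 30.3 in KO. Both groups were spread, with WT 2 and KO 2 the highest, but they did not overlap, and the log2 fold change was -0.96 (SE 0.20, edgeR adjusted p = 0.0327). Ncapd2 (ENSMUSG00000038252, chr6:125168007-125191701) encodes a subunit of condensin I, which folds mitotic chromosomes. It measured 23.6, 26.5 and 20.3 CPM in WT and 11.9, 14.95 and 13.1 in KO, with separate groups and a fitted change of -0.82 on the log2 scale (SE 0.18, edgeR adjusted p = 0.0402).

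The other condensin genes did not pass. Smc2, an ATPase core subunit of both condensins, had a log2 fold change of -0.71 without overlap (43.2 ± 9.72 CPM in WT, 26.5 ± 2.74 in KO, edgeR adjusted p = 0.0727). Its partner Smc4 had -0.16 with an interval from -0.49 to 0.17 (83.3 ± 14.4 and 74.5 ± 8.77 CPM), and Ncapg, another condensin I subunit, had -0.58. The fitted values of the 4 condensin genes thus ran from -0.82 to -0.16, and differences between them were not tested. Hmgb2, a chromatin protein with the highest CPM of all members, measured 164, 155 and 146 CPM in WT and 109, 139 and 116 in KO. KO 2 came near to WT 3 without reaching it (log2 fold change -0.35, SE 0.12, edgeR adjusted p = 0.173).

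Mki67 encodes Ki-67, the protein most used to mark cycling cells, and its values per library were chosen for print after they were seen. It measured 40.2, 33.4 and 17.3 CPM in WT and 12.6, 16.4 and 25.9 in KO. The spread was the widest within WT of all members, at 2.33 for the highest over the lowest, and KO 3 lay above WT 3. The log2 fold change was -0.73 (SE 0.32, interval -1.45 to -0.02, edgeR adjusted p = 0.303), so its fitted value lay near the members' median while its error did not let it pass. Cdca3, a regulator of mitotic entry, measured 32.1, 35.8 and 22.4 CPM in WT and 21.6, 17.8 and 20.4 in KO. WT 3 lay just above KO 1, and the log2 fold change was -0.59 (SE 0.19, edgeR adjusted p = 0.153).

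Further lists show how the rest of the cell cycle programme was measured in the same fit. A second list of 56 mitosis genes, all tested, had 2 that fell, 3.57% of the list beside 1.05% of all tested genes. The list had none that rose by edgeR, DESeq2 or limma-voom. Its median log2 fold change was -0.55, and 53 of its values were below 0. Cks1b, a small CDK-binding protein, went from 65.9 ± 10.8 CPM in WT to 39.3 ± 3.45 in KO (-0.74, SE 0.15), and Tacc3, a spindle protein, from 68.9 ± 11.4 to 42.0 ± 2.46 (-0.71, SE 0.14), both at an edgeR adjusted p of 0.0327. Of the 56 genes 20 had separate groups with KO lower, beside 10.6% of all tested genes. DESeq2 called 9 of the 56 lower, beside 2.8% of the genes to which it gave an adjusted p. Within 15 Mb of Mavs lie 4 of the 56. The summed level of this list was 1062 ± 151 CPM in WT and 807 ± 25.3 in KO, a KO sum of 0.760 of WT beside 0.670 for the 44 mitosis genes. Its promoters held CHR letters in 54% of 50 windows, beside 84.2% for the 44 genes.

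The 51 genes of the G1/S transition and of DNA replication, which act earlier in the cycle, had 12 that fell. That is 23.5% of the list, beside 1.05% of all tested genes that were called lower. Of the 51 genes 34 had separate groups with KO lower, beside 10.6% of all tested genes. The list's median log2 fold change was -0.81, and the KO sum was 0.612 of the WT sum. The 6 with the smallest p were Mcm5 (-1.11), Mcm2 (-1.06), Mcm3 (-0.94), Mcm7 (-1.14), Mcm6 (-0.84), which encode subunits of the replicative helicase, and Rrm2 (-0.86), a subunit of ribonucleotide reductase. Their edgeR adjusted p-values lay between 0.0164 and 0.0327. Of the list, 2 genes lie within 15 Mb of Mavs. In this list the promoters held CHR letters in 17.4% and E2F letters in 37% of 46 windows, against 84.2% and 10.5% for the 44 mitosis genes. These shares describe whole lists. The change in level was not split by motif within a list, and no test compared the lists.

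The medians of the remaining lists lay nearer to 0. The list of cohesin, its regulators and the anaphase-promoting complex, with its activator gene Fzr1, holds 22 genes. None of the 22 passed by edgeR, and their median log2 fold change was -0.04. An unadjusted p under 0.05 was found for 2 of them, DESeq2 called 1 and limma-voom 0. The 2 with the smallest p were Anapc5 (-0.41, edgeR adjusted p = 0.102) and Pds5b (-0.44, edgeR adjusted p = 0.262), and the sum was 1249 ± 39.1 CPM in WT and 1147 ± 14.4 in KO. The 14 genes of MuvB, E2F and the pocket proteins encode factors of cell cycle promoters, and binding to the members' promoters was not measured. None of the 14 passed by edgeR, DESeq2 or limma-voom, 3 had an unadjusted p under 0.05, and the median was -0.17. E2f3 (-1.08, edgeR adjusted p = 0.202) and Tfdp2 (-0.68, edgeR adjusted p = 0.22) had the smallest p.

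None of the 5 D cyclins and their kinases, which drive entry into the cycle, passed by edgeR or limma-voom. DESeq2 called 1, 2 had an unadjusted p under 0.05, and the median log2 fold change was -0.08. Ccnd3 (-0.35, edgeR adjusted p = 0.117) and Cdk6 (0.44, edgeR adjusted p = 0.125) had the smallest p. Of 12 CDK inhibitors and antiproliferative genes 10 were tested, since Cdkn1c and Cdkn2a were below the filter. None passed by edgeR or limma-voom, 3 had an unadjusted p under 0.05, all with higher levels in KO, and DESeq2 called 2 of them higher. Btg1, an antiproliferative gene, averaged 430 ± 110 CPM in WT and 763 ± 186 in KO (0.83, edgeR adjusted p = 0.0616), and Cdkn1a, which encodes the CDK inhibitor p21, averaged 743 ± 36.8 and 923 ± 6.45 (0.31, edgeR adjusted p = 0.102). Both had every KO library above every WT library, which was so for 1415 of the 12580 tested genes. In the list of 10 it was so for 4 genes, and Cdkn1b (-0.56, edgeR adjusted p = 0.421) had every KO library below every WT library. Of the 10 log2 fold changes 5 were below 0 and 5 above, with a median of 0.06.

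**Figure D5:**
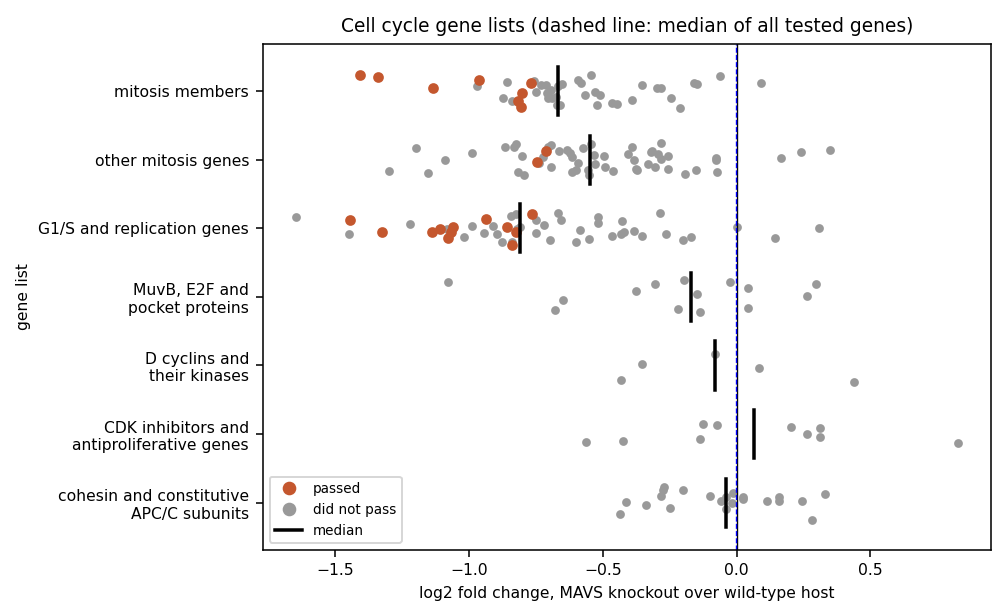
Fitted log2 fold change (KO over WT) of each tested gene in the 44 mitosis genes and in 6 other cell cycle lists, with orange points for genes that passed, grey points for those that did not, a black bar for each list's median, and a dashed line at the median of all tested genes. The medians are -0.67 for the mitosis genes, -0.55 for the other mitosis genes and -0.81 for the G1/S genes, and between -0.17 and 0.06 for the other lists.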

How the data were processed

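RNA sequencing of 6 libraries was used, 3 WT and 3 MAVS KO, grouped by their GEO labels. The authors deposited 1 table of raw counts per Ensembl gene, in whole numbers and not normalized. Per the submitters' processing notes the tools were HISAT2, HTSeq and DESeq2 and the build mm10, with no roles, versions or settings given. Per the labels' protocols the library kit was TruePrep DNA Library Prep Kit V2. Of 26519 gene identifiers 26383 matched GENCODE M21 (GRCm38), which gave symbols and positions, and 136 did not.

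Genes were filtered with filterByExpr (minimum count 10, minimum total 15), which left 12580, and tested with edgeR 4.0.16 in R 4.3.3 (TMM scaling, quasi-likelihood F test, no covariate, Benjamini-Hochberg adjustment over all tested genes, threshold 0.05). Alternatives used DESeq2 1.42.0, limma-voom (limma 3.58.1), other scalings and filters, a fold minimum, and each library left out. Thinning to the smallest library was added after seeing the data. No pair of libraries within a group agreed within sampling noise.

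Promoters came from RefSeq's windows on GRCm38.p6. Near-identical copies and overlapping exons were sought in GENCODE M21. Library totals of 14466640 to 20851733 counts limit the precision of low genes. Tested on simulated data with 200 changed genes among 12253 tested, for KO against WT, the share recovered was 18% at 1.5-fold, 52% at 2-fold, 84.7% at 4-fold and 92.7% at 8-fold, and 6.08% of the calls were false.

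The 44 members, the other gene lists and the marker lists were chosen with earlier results of these data known, so no p-value is given for a list. Listed markers without a count to use were not analysed here. Every member is accounted for by name. Values per library are given for each member that passed and, in each role group, for the member with the smallest p and the one with the highest mean CPM. From each other list up to 6 genes that passed are named, by smallest p, or the 2 with the smallest p where none passed. Promoters are printed for the 4 members with the smallest p that hold both motifs, and of the 2 with the largest p for Anln, limited to 30 bases where the stretch is exonic.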

Additional observations from a re-analysis of the deposited data

How the results depend on the processing

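The test as described called 132 tested genes lower and 222 higher in KO, 8 of the 44 mitosis genes lower, 2 of the other mitosis genes lower and 12 of the G1/S genes lower, and no setting called a mitosis gene higher. Those 5 counts, in that order, were 339, 433, 21, 9 and 24 with the DESeq2 Wald test, 341, 102, 19, 6 and 23 with library size alone, 393, 531, 25, 9 and 23 with no filter on low counts, and 73, 76, 3, 0 and 7 with a log2 fold change of at least 1 required. With library size alone the median over all tested genes moved to -0.17 and that of the members to -0.84. A filter at a mean of 5 CPM called 14 mitosis genes lower. Leaving out each library in turn gave 9 to 96 tested genes lower and 22 to 181 higher, 0 to 15 mitosis genes lower (0 without KO 1 or KO 3, 15 without WT 3), 0 to 2 other mitosis genes and 0 to 17 G1/S genes. Fewer libraries widen the error, and the cause of the rise without WT 3 was not tested. limma-voom called 6 mitosis genes (without Kif4 and Ncapd2), the thinned libraries 7, and DESeq2 size factors and robust dispersion 8 each. The members' median log2 fold change lay between -0.84 and -0.49 in every setting that gave one.

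Fitted values near 0 changed sign in some settings. Pttg1 was at -0.076 with library size alone, and with 1 library left out it ranged from -0.0029 to 0.17, Cenpf from -0.31 to 0.029 and Anln from -0.29 to 0.14. No pairing by replicate number was seen. Same-numbered samples correlated at 0.038, 0.087 and -0.043 in their deviations from the group means, and the other pairs at -0.138 to 0.122. With so few samples these values cannot show whether samples were handled in pairs. A fit with the number as a replicate block called the same 8 mitosis genes, with a median of -0.64, beside 150 tested genes lower and 264 higher, 3 other mitosis genes and 14 G1/S genes. Depth limits the low members, of which Ttk had 389 counts in all 6 libraries.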
